A study of Mus musculus with 6 samples.

Results

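The 10 genes described here encode chaperones and proteases that fold, refold and degrade proteins inside mitochondria. They are Hspd1, Hspe1, Hspa9, Dnaja3 and Trap1 (folding), Lonp1, Clpp and Clpx (matrix proteolysis), and Yme1l1 and Afg3l2 (inner membrane proteolysis). They were chosen by name, 10 of 21000 protein-coding genes, and every region of the 4 annotated ATF4 peak lists whose gene name was one of them was taken, at any distance from the transcription start site (TSS). This gave 9 of 17462 regions, of which 4 and 3 were in the lists of wild-type cells with and without leucine, and 1 and 1 in those of GCN2 KO cells.

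ATF4 is a transcription factor made in larger amounts when amino acids are scarce, and GCN2 (gene Eif2ak4) is a kinase that senses uncharged tRNA and raises ATF4 translation. ATF4-bound chromatin was collected from mouse embryonic fibroblasts (MEFs) of strain 129S6/SvEvTac, either wild-type (WT) or GCN2-/- (GCN2 KO), kept for 24 h in complete DMEM (+Leu) or in DMEM lacking leucine (-Leu). Wherever 4 values follow each other, WT +Leu comes before WT -Leu, then come GCN2 KO +Leu and, last, GCN2 KO -Leu. Each condition was sequenced as 1 library, made from chromatin that the study pooled over independent experiments, so no spread between replicates and no test can be given. Per their headers, both -Leu lists were called against input from leucine-fed cells of the matching genotype, so an effect of the medium on the input cannot be told apart from an effect on binding. The lists hold 17462 peaks, 4850, 6374 and 3566 of them in the first 3 and the fewest in the last, with median Peak Scores of 30, 30, 29 and 30 and maxima of 1499, 2628, 391 and 353. The score was not scaled between libraries and read depth is unknown, so each score is given with its rank in its own list. A gene without a peak had no region past the peak caller's threshold, which does not show that ATF4 was absent. Peak lists measure no RNA, so neither the cell type nor the loss of GCN2 could be checked.

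Most mitochondrial proteins are imported as unfolded chains. Mitochondrial HSP70 (Hspa9) pulls them in and passes them on to the HSP60/HSP10 folding chamber (Hspd1 and Hspe1), and ATP-driven proteases remove those that fail to fold. When unfolded proteins build up in mitochondria, cells raise the transcription of these genes, a response called the mitochondrial unfolded protein response, and in mammals the factors ATF4, CHOP and ATF5 have been placed in it.

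Exact matches to an ATF4-type motif near member TSSs are given first. None of the 9 member peaks contained such an exact match. The motif searched was TGATGCAA, the 8-base CEBP-ATF response element, on both strands. It occurred within 5 kb of the TSS of 4 of the 10 members, at 5 sites, and of 5110 of the 21000 genes (24.3%). With only 10 genes, this count is not far from that share and is not read as a trait of the members. The 3 sites that can be shown, read from the GRCm38.p6 genome (mm10 coordinates) on the strand that carries the match, with the motif in capitals, are:
Hspd1 chr1:55083105-55083112, minus strand, exon: aacatcatttcTGATGCAAtgaaaaaggtt
Trap1 chr16:4076522-4076529, plus strand, intron: tttgcagaacaTGATGCAAagatacacaag
Yme1l1 chr2:23154987-23154994, minus strand, upstream of the gene: gcaggagcaagTGATGCAAaaccaaaattt
The Hspd1 site lay 4824 bp downstream of the TSS, the Trap1 site 1285 bp downstream and the Yme1l1 site 1515 bp upstream. No ATF4 peak of any list was centered on these sites. The nearest peak center was 28802 bp away for Hspd1 (WT +Leu), 1457 bp for Trap1 (GCN2 KO -Leu) and 166291 bp for Yme1l1 (WT -Leu). The other 2 sites belonged to Hspa9, one 1597 bp inside the gene and one 4311 bp upstream, and their nearest peak centers were 1623 bp and 3994 bp away.

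RefSeq promoters of GRCm38.p6, from 250 bases before to 50 bases after a gene's start, matched 8 of the 10 members, with 9 promoters in all. Hspa9 and Afg3l2 had no entry, so their promoters were not among those searched. None of the 9 held TGATGCAA or the looser form TGATGNAA, which occurred in 0.895% and 3.97% of all 32851 promoters. Other stress elements were present in 3 of them, those of Hspd1, Hspe1 and Trap1, and are shown for this reason alone. They are the palindromic heat shock element core GAANNTTC (7.86% of all promoters) and the cyclic AMP response element TGACGTCA (1.79%), in capitals on the gene's strand:
Hspd1 promoter, GAANNTTC: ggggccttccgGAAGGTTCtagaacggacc
Hspe1 promoter, GAANNTTC: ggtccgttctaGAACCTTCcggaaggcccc
Trap1 promoter, TGACGTCA: gtcgcgcgccaTGACGTCActgagccgccc
Hspd1 and Hspe1 run in opposite directions from a shared stretch of chromosome 1, and the first 2 lines are a single site, chr1:55088064-55088071, read from each gene's strand. Its first base lay 139 bases before the more downstream Hspd1 start of that table and 84 bases before the Hspe1 start, while the Trap1 element began 47 bases before that start. A match of letters is not evidence of binding by any factor.

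At any distance, 4, 2, 1 and 1 of the 10 members had a peak in the 4 lists. Of all protein-coding genes, 15.2%, 19.1%, 11.6% and 8.92% had one. The counts of the last 3 lists were thus near the background, and that of WT +Leu was above it in a list of only 10 genes. Within 5 kb of the TSS, the counts were 2, 2, 1 and 1, where the background was 3.16%, 4.59%, 2.36% and 1.68% of genes. These counts lay above the background but were of 1 or 2 genes each. In each of the first 3 lists 1 of them was Hspa9, which the paper already names among the ATF4-bound genes of both WT lists. The excess in these lists is therefore not an independent result. Hspa9 was the only member named in more than 1 list. In all, 6 members had a peak in some list, and Hspd1, Hspe1, Lonp1 and Yme1l1 had none in any. The shares of all genes named in at least 1 list, or in more than 1, were not computed, so these counts have no background beside them.

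**Figure D1:**
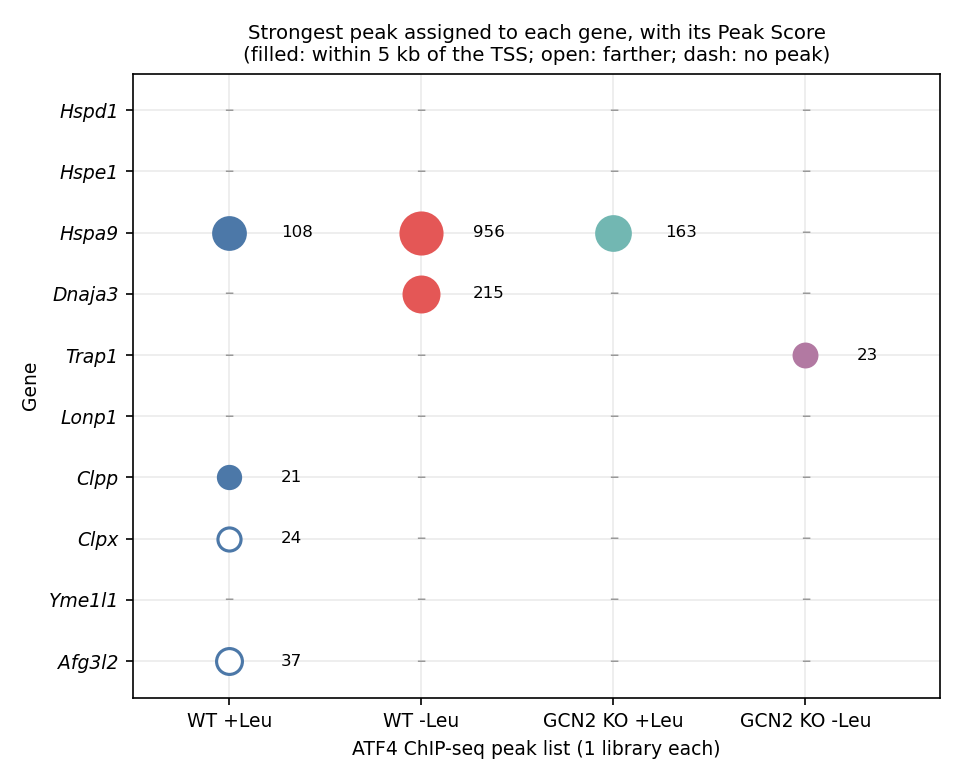
Strongest ATF4 peak listed for each of the 10 genes (rows) in each of the 4 peak lists (columns, 1 library each), with the Peak Score printed beside it and circle area growing with the score. Filled circles are within 5 kb of the TSS, open circles are farther away and a dash means no peak; Hspa9 is the only row with a peak in more than 1 list.

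Hspa9, the mitochondrial HSP70, carried the strongest member peak in each of the 3 lists that named it. Its TSS is on the minus strand of chromosome 18 (gene chr18:34937414-34954351). In WT +Leu the peak at chr18:34954518-34954818 scored 108 and ranked 73 of 4850. In WT -Leu the peak at chr18:34954512-34954812 scored 956 and ranked 33 of 6374. In GCN2 KO +Leu the peak at chr18:34954517-34954817 scored 163 and ranked 12 of 3566, and GCN2 KO -Leu listed no peak for Hspa9 at all. The score was thus highest in leucine-starved WT cells, while the rank was highest in leucine-fed GCN2 KO cells. Among peaks within 5 kb of a TSS the ranks were 38 of 811, 17 of 1173 and 8 of 591.

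The 3 peaks were one site to within a few bases. Their centers lay 317, 311 and 316 bp upstream of the TSS, in the region the lists call promoter-TSS. WT -Leu also held a second, weak Hspa9 peak at chr18:34954228-34954528, centered 27 bp upstream of the TSS, whose score of 23 it shared with many others (rank 4264, 1122 peaks at this score). The nearest peak centers of other lists were those of the stronger site, 290 bp away in WT +Leu and 289 bp away in GCN2 KO +Leu. In GCN2 KO -Leu the peak nearest to the Hspa9 TSS was 590860 bp away, listed under another gene, with a score of 37.

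**Figure D2:**
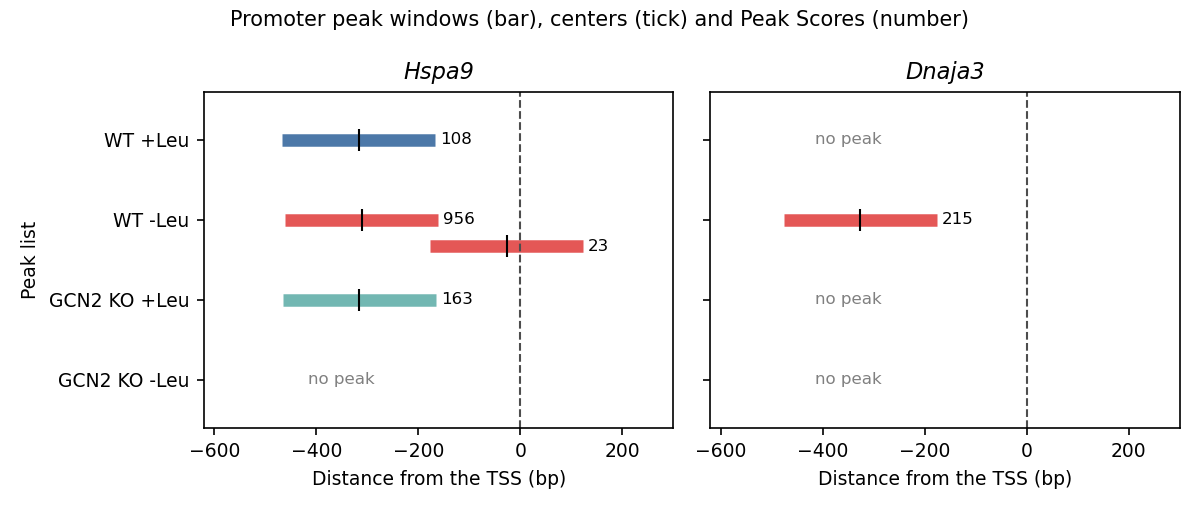
ATF4 peak windows at the Hspa9 and Dnaja3 promoters in the 4 lists. Bars are the 301-base windows plotted by distance from the TSS in bp, with negative values upstream, ticks are the centers and the numbers are Peak Scores. The Hspa9 peaks of 3 lists overlie each other, 311 to 317 bp upstream, and Dnaja3 has a peak in WT -Leu only.

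The strong Hspa9 site was set beside other genes bound at a common site, which were those whose strongest peak within 5 kb had its center within 300 bp in both lists. Between WT +Leu and WT -Leu, 98 genes had such a site, 88 scored higher in -Leu, and the median ratio was 2.72. The Hspa9 score was 8.85 times higher in -Leu, at place 8 of the 98. Between WT +Leu and GCN2 KO +Leu, 43 genes had such a site and 34 scored lower in the GCN2 KO, with a median ratio of 0.556. The Hspa9 ratio was 1.51, and it was among the 8 genes that scored higher in GCN2 KO, at place 6 from the top. Between WT -Leu and GCN2 KO +Leu, Hspa9 (ratio 0.171) lay near the median of the 49 shared genes (0.188). These ratios rest on 1 library each and on scores without scaling, so they order genes within a pair of lists and do not measure a change in binding.

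The missing Hspa9 peak in GCN2 KO -Leu was set beside other peaks of its rank. The 12 strongest peaks of GCN2 KO +Leu, of which Hspa9 was the 12th, all had a peak within 300 bp in both WT lists, and 10 of the 12 had one in GCN2 KO -Leu. The exceptions were Hspa9 and Eif4ebp1, which encodes a repressor of cap-dependent translation (score 211 in GCN2 KO +Leu). Counted from the other lists the share was smaller. Of the 74 WT +Leu peaks that scored at least as high as Hspa9, 38 (51.4%) had a partner in the +Leu list of GCN2 KO cells and 29 (39.2%) in their -Leu list. Of the 33 such peaks of WT -Leu, 30 had a partner in WT +Leu, and 18 and 19 had one in the +Leu and -Leu lists of GCN2 KO cells. GCN2 KO -Leu was also the shortest list, and the part of depth or peak calling in the missing peak was not tested.

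**Figure D3:**
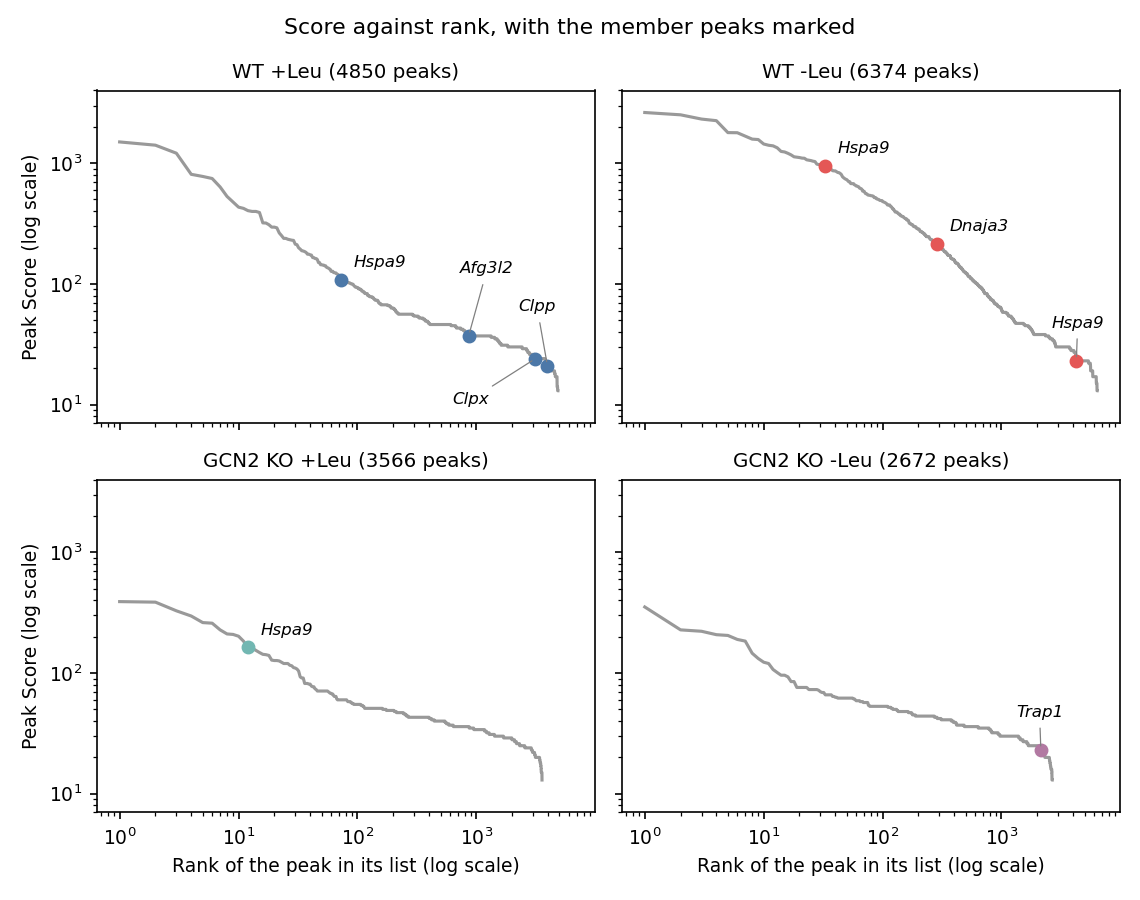
Peak Score against rank for every peak of each list, both on log scales, with the peaks of the 10 genes marked. Hspa9 sits on the steep upper part of the curve in 3 lists and Dnaja3 in WT -Leu, while Afg3l2, Clpx, Clpp and Trap1 sit where many peaks share low scores.

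Genes whose pattern over the 4 lists was most like that of Hspa9 were sought among 2470 genes with a peak within 5 kb in any list. Each gene was given the percentile of its strongest such peak in each list, or 0 without one, and genes were ordered by Euclidean distance over these 4 values. The percentiles of Hspa9 were 98.52, 99.5, 99.69 and 0. Kdm6b, a histone H3 lysine demethylase, was nearest at a distance of 0.919, with scores of 187, 1791 and 128 in the first 3 lists. Eif4ebp1 followed at 1.02, with scores of 137, 500 and 211, and Shmt2, the mitochondrial serine hydroxymethyltransferase, at 1.4, with scores of 530, 1121 and 120. All 3, like Hspa9, had no peak within 5 kb in GCN2 KO -Leu, a feature the measure itself selects for. The top scores within 5 kb of a TSS were those of Chac1, a glutathione-degrading enzyme, at 1499, 2515 and 391 in the first 3 lists, and of Mthfd2, a mitochondrial folate enzyme, at 208 in the last.

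The Hspa9 peak held no exact ATF4 motif. None of the 9 member peaks had TGATGCAA, TGATGNAA or TGACGTCA anywhere in the 301-base window. Of all peaks of the lists, 3.91%, 9.05%, 1.72% and 1.5% had TGATGCAA in the window, and 2.71%, 6.95%, 1.07% and 1.09% had it within 50 bp of the center. At such shares, its absence from 9 peaks is near the background. Allowing 1 mismatch, a choice made after the peaks had been seen, a stretch was found 6.5, 0.5 and 5.5 bp from the center of the Hspa9 peaks in the first 3 lists. Such a stretch within 50 bp was present in 10.4% (95% Wilson interval 9.55 to 11.3%), 18.9% (18 to 19.9%) and 7.95% (7.1 to 8.88%) of all peaks of these lists. Among peaks ranked at least as high as Hspa9 it was present in 62 of 74 (83.8%), 31 of 33 (93.9%) and 11 of 12 (91.7%). Exact motifs in the window were present in 45 of these 74, 22 of these 33 and 5 of these 12 peaks. The near match counts include peaks with an exact motif, and they were taken within 50 bp and not over the window. Peaks with only a mismatched stretch, as at Hspa9, were not counted apart. In WT +Leu and WT -Leu, Hspa9 was among the minority of peaks of its rank without an exact motif in the window. The windows were 56.8%, 56.5% and 56.8% G+C with CpG contents of 8.0% in each, the highest CpG contents among the member peaks apart from the second WT -Leu peak (8.67%).

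Dnaja3 encodes the J-domain partner that stimulates the ATPase of mitochondrial HSP70. It had a peak in WT -Leu only, at chr16:4683594-4683894, with a score of 215 and rank 286 of 6374 (105 of 1173 within 5 kb). The center lay 326 bp upstream of the TSS, close to the offset of the Hspa9 peak from its own TSS. How common such an offset is among promoter peaks was not computed, so it cannot be read as a shared trait. No list had another peak within 300 bp. In WT +Leu the nearest peak to the TSS was 8380 bp upstream, in an intron of Coro7 (score 59), whose own TSS is 4024 bp from the Dnaja3 peak center. The 30 bases around the Dnaja3 center are shown because this peak, unlike that of Hspa9, held no TGATGCAA even with 1 mismatch; none is set in capitals:
Dnaja3 peak center, chr16:4683729-4683758, plus strand: cctttctgagagaacatgtaataagatgta
Of the 286 WT -Leu peaks scoring at least as high as this one, 249 (87.1%, 95% Wilson interval 82.7 to 90.5%) had such a near match in the window and 138 (48.3%) an exact one. Only 137 of the 286 (47.9%) had a partner in WT +Leu, and 52 (18.2%) and 31 (10.8%) had one in the +Leu and -Leu lists of GCN2 KO cells, while 145 (50.7%) had a partner in none. A peak seen in WT -Leu alone was therefore common at this rank.

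Trap1, the mitochondrial HSP90, had a peak in GCN2 KO -Leu only, at chr16:4074918-4075218, with a score of 23 and rank 2144 in this shortest list, a score shared by 72 peaks. It lay 2742 bp downstream of the TSS in intron 1 of 17, on the far side of the TGATGCAA site shown above, which its window did not reach. In the other 3 lists the nearest peaks were 286140, 238513 and 40321 bp from the TSS.

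Hspd1 (HSP60) and Hspe1 (HSP10) form the folding chamber together and had no peak in any list. Their nearest peaks were 23668 and 23763 bp away in WT +Leu and 133584 and 133800 bp away in WT -Leu. They were 572010 and 572105 bp away in GCN2 KO cells with leucine, and without it 2280596 and 2280812 bp. Because the genes share a promoter region, these are one distance measured from neighboring starts. The chaperone that feeds the chamber was thus listed with a strong promoter peak and the chamber's own genes with none.

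Among the matrix proteases, Lonp1, which degrades oxidized and misfolded matrix proteins, had no peak in any list. Its nearest peaks were 108695, 57031, 84330 and 165748 bp from the TSS. Clpp, the proteolytic subunit of the ClpXP protease, had a peak in WT +Leu only, at chr17:56993002-56993302, 2888 bp downstream of the TSS in intron 4 of 5. It scored 21 and ranked 3960 of 4850, tied with others to a total of 314 peaks, and 36.2% of its window was repeat sequence. Clpx, the unfoldase of the same protease, also had a peak in WT +Leu only, at chr9:65306665-65306965, 12555 bp downstream of the TSS in intron 3 of 12, with a score of 24 and rank 3141 (646 peaks at this score). Both ClpXP subunits were therefore listed in leucine-fed WT cells alone, at scores under the list's median of 30.

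The inner membrane proteases gave a single peak. Yme1l1, the i-AAA protease that faces the intermembrane space, had none, and its nearest peaks were 400725, 164777, 939948 and 1222458 bp away. Afg3l2, a subunit of the m-AAA protease that faces the matrix, had a peak in WT +Leu at chr18:67422713-67423013, 26273 bp downstream of the TSS in intron 10 of 16. Its score of 37 was above the list's median and its rank was 861 of 4850, tied among 470 peaks. None of the 4 intronic peaks of Trap1, Clpp, Clpx and Afg3l2 had a partner within 300 bp in another list. The share of all peaks of such scores without a partner was not computed, so this cannot be read as a trait of these genes. Their CpG contents were 1.0%, 2.33%, 0.667% and 2.67%, below those of the Hspa9 promoter peaks.

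Because a peak near one gene can be listed under another, the distance from each TSS to the nearest peak was also taken, whatever name the list gave. The median over the 10 genes was 23.7, 64.3, 174 and 188 kb in the 4 lists, and over all genes 142, 100, 194 and 258 kb. In WT +Leu 8 of the 10 genes lay below the all-gene median, and in each other list 6 of 10 did. This measure found no member within 5 kb of a peak beyond those already named. Hspd1 and Hspe1 share their distances, so the 10 values are not independent.

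**Figure D4:**
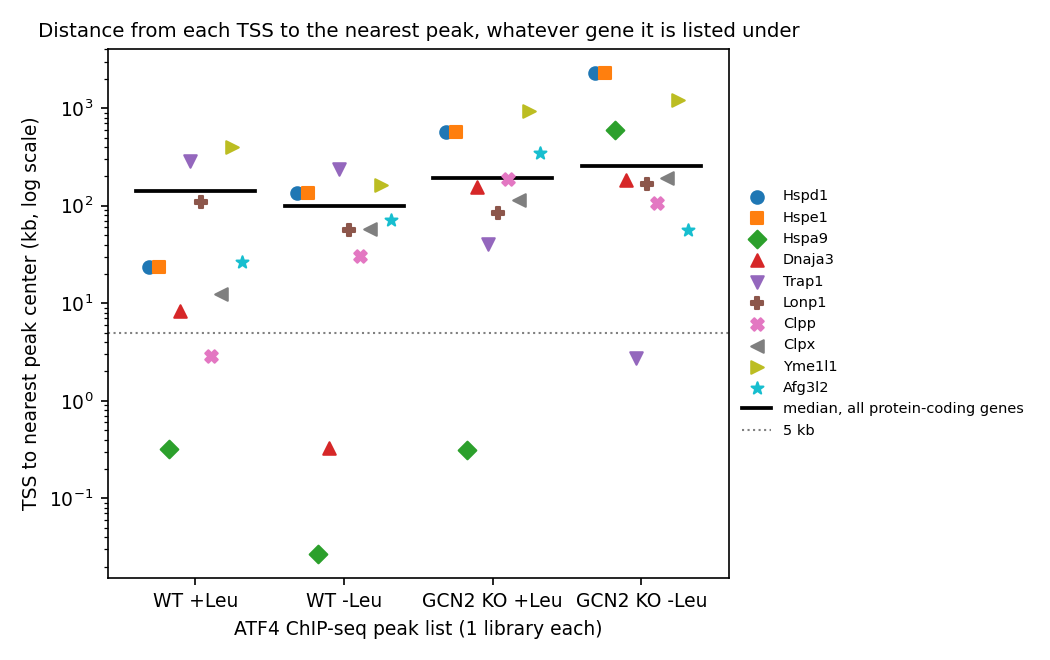
Distance from each TSS to the nearest ATF4 peak in each list, in kb on a log scale, whatever gene the list names. Points are the 10 genes, thick lines mark the median over all protein-coding genes and the dotted line marks 5 kb; Hspa9 lies below 1 kb in 3 lists, and most other genes lie above 10 kb.

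A list of 39 other genes of mitochondrial protein quality control gave 5, 2, 2 and 1 genes with a peak within 5 kb, which is 12.8%, 5.13%, 5.13% and 2.56% beside backgrounds of 3.16%, 4.59%, 2.36% and 1.68%. The count was carried by stress signalling genes, 4, 2, 2 and 1 of 8 in the 4 lists. These include Atf5 and Ddit3, which the paper names among the ATF4-bound genes of these same data. The excess over the background is therefore not an independent result. Among the 8 cochaperone and disaggregase genes, Dnlz, a cochaperone of mitochondrial HSP70, had a peak in WT +Leu (score 56, 2910 bp downstream of the TSS). None of 16 other proteases and prohibitins and none of 7 import channel genes had a peak within 5 kb in any list. One of the proteases had a peak just past this limit, 5226 bp downstream of its TSS in WT +Leu (score 26). The share of all genes with a peak within 5 kb in any list was not computed.

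Atf5, a transcription factor of the mitochondrial unfolded protein response, was the one gene of this list with a peak within 5 kb in all 4 lists. Its scores were 808, 1569, 228 and 205 and its ranks 4, 9, 7 and 5, between 2445 and 2463 bp upstream of the TSS, with TGATGCAA within 50 bp of the center each time. Ddit3, which encodes CHOP, was listed in the same 3 conditions as Hspa9 at its promoter, with scores of 173, 736 and 40 and ranks 41, 49 and 442, again with the motif. The Hspa9 peak outscored that of Ddit3 in WT -Leu and in GCN2 KO +Leu but not in WT +Leu. Cebpb, a bZIP partner factor, had a weak promoter peak in WT +Leu (score 35, 424 bp upstream), and Eif2ak1, the heme-regulated kinase that phosphorylates eIF2α, an intronic one in WT +Leu (score 30, 2840 bp downstream).

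A second list held 15 counterparts of these chaperones and of Lonp1 in other compartments. Within 5 kb of a TSS 0, 1, 0 and 0 of 15 had a peak, where the background was 3.16%, 4.59%, 2.36% and 1.68% of genes, so these counts were near the background. The 1 gene was Hspa5, the HSP70 of the endoplasmic reticulum, in WT -Leu, with a score of 135, rank 458 and a center 1940 bp upstream.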

How the data were processed

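ATF4 ChIP-seq peak lists of 4 libraries were used; the 2 input libraries were not analysed here. Per the paper and the submitters' processing notes, the authors used fastx to trim reads, BWA 0.7.12 to align them (mm10), MACS2 2.1.0 to call peaks and HOMER 4.7 to annotate them. The authors deposited 1 list per library, with a Peak Score per region (scale not stated, taken as a score) and CpG and G+C contents as a fraction of each region, printed here as percent. The deposited distance to the TSS, annotation and gene name were used as given.

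The deposited G+C fraction of every region on an assembled chromosome equalled that of the GRCm38.p6 reference, which was therefore used for sequence. Scripts in Python 3.11.15 (numpy 2.4.6, pandas 2.3.3, pysam 0.24.0) ranked peaks by score within a list, with ties at the best rank, paired peaks of different lists whose centers lay 300 bp or less apart, took 5 kb as near a TSS and searched motifs on both strands within 50 bp of a center; they were tested on simulated data. A gene's background share is over 21000 protein-coding genes.

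All 10 members are named, with genes of the 2 comparison lists that had a peak within 5 kb, genes listed for a peak within 10 kb of a member TSS, the 3 genes most like the top member, and each list's top gene. Members and lists were chosen with earlier results of these data known. All 64 genes matched the annotation, Atp23 through an older symbol. With 1 library per condition no test was made. Read depth is unknown, and intervals are 95% Wilson intervals covering counting error only. Alternatives were other TSS distances, a score minimum of 30, lists shortened to the length of the shortest, ranks within 5 kb or with ties at the worst rank, assembled chromosomes only, other center distances and other motif settings.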

Additional observations from a re-analysis of the deposited data

Results flagged for a closer look

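For Atf5 the score was higher by 761 in WT -Leu than in WT +Leu, and in GCN2 KO cells it was lower without leucine by a small amount, 205 against 228. The difference was not tested, since each score is that of 1 library. The ranks ran the other way, from 4 to 9 in WT and from 7 to 5 in GCN2 KO cells. Most genes bound at a common site moved alike. Of these, 88 of 98 scored higher in WT -Leu than in WT +Leu. In GCN2 KO cells 19 of 27 scored lower in -Leu than in +Leu, with a median ratio of 0.857. This holds for these genes and not for the lists as a whole, whose median scores were 30, 30, 29 and 30. For Hspa9 and Ddit3 the scores were higher by 848 and 563 in WT -Leu than in WT +Leu. In GCN2 KO cells their scores with leucine were 163 and 40 and no peak was listed without it, so no difference of scores can be given there and none was tested.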

How the results depend on the processing

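Of 84 alternative values for 22 results, 61 stayed within their limits and 23 moved. The 4 members with a peak at any distance in WT +Leu became 2 within 5 kb, 2 within 10 kb, 1 within 1 kb, 2 with scores of at least 30 and 2 among as many of the strongest peaks as the shortest list holds. The 1 member of GCN2 KO -Leu (Trap1) became 0 within 1 kb and 0 with scores of at least 30. Counted among peaks within 5 kb only, the top member's rank became 38 of 811 in WT +Leu and 17 of 1173 in WT -Leu. In GCN2 KO -Leu it became 341 of 426. Fewer peaks are ranked there, so these smaller numbers, counted as moved, do not by themselves mean a higher position. With ties at the worst rank, the top member's rank became 2215 in GCN2 KO -Leu. Allowing 1 mismatch in TGATGCAA, an alternative chosen after seeing the data, gave 1 member peak with a motif in WT +Leu, 1 in WT -Leu and 1 in GCN2 KO +Leu in place of 0. The quality control genes within 5 kb, 5, 2, 2 and 1 in the 4 lists, became 2, 1, 1 and 0 within 1 kb and 12, 4, 6 and 3 at any distance. Both Hspa9 peaks of WT -Leu lay within 300 bp of the 1 Hspa9 peak of GCN2 KO +Leu and were counted as 2, although this is a single site there, and the count became 1 when centers had to lie within 100 bp. No paired analysis was possible because each condition had 1 library. The scores' scale and the read depth are unknown, so neither a difference between lists nor a missing peak can be given an error.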

Other observations

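Some quality control genes outside the members were listed through distant regions only. Dnajc19, a J-domain protein of the import motor, had 3 intergenic peaks in WT +Leu, between 106892 and 215501 bp upstream of its TSS, the strongest with a score of 67 and rank 158 of 4850. Pitrm1, which degrades cleaved targeting peptides, was named in WT +Leu, WT -Leu and GCN2 KO +Leu, but at different places, 40582 bp downstream, 182904 bp upstream and 23235 bp downstream of its TSS, with scores of 23, 121 and 18. These genes were picked after their values had been seen.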
